A study of Homo sapiens with 16 samples.

Results

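IRF1, GBP1, HELZ2, GBP2, ISG15, IFIT1, IFIT2, IFIT3, MX1 and OAS1 were followed in human skin fibroblasts given a mitogen for 1 h. They are 10 of the 28374 genes in the count table, and all 10 passed the filter on low counts that left 18575 tested genes. IRF1, GBP1 and HELZ2 were chosen by measured values of this experiment, namely their pattern over the mitogens and the inhibitor H89, so their values are given as a description with no test. The other 7 were added as interferon-type genes. The cells were CCD-1070Sk, a line of normal human skin fibroblasts, and all of them were serum starved. They were given epidermal growth factor (EGF, 30 ng/ml) or TPA (100 nM), a phorbol ester that activates protein kinase C, each for 1 h. H89, used by the submitters to inhibit MSK kinases and also an inhibitor of protein kinase A, was added at 10 µM for 30 min before the mitogen or was given alone. The groups were EGF+H89 with 2 libraries, EGF with 3, TPA+H89 with 2, TPA with 2, H89 alone with 3 and the untreated control with 3. H89 alone is labelled 0 h, so the time in H89 may differ between it and the groups with a mitogen.

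Interferons bind receptors on the cell surface and act through JAK kinases and STAT transcription factors. STAT dimers bind short DNA elements known as GAS sites, while a complex of STAT factors with IRF9 binds the interferon-stimulated response element (ISRE), which IRF family factors also bind. IRF1 is a transcription factor that several cytokine and growth signals can switch on quickly, as well as interferon gamma, and the ISG, IFIT, MX and OAS genes are the classical later targets that restrict viruses. Fibroblasts respond to interferon and can also make interferon beta themselves.

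The libraries held 7527026 (TPA+H89 1) to 130075914 (TPA 2) counts, and levels are given as CPM, the count scaled to a common library size, after TMM scaling. A control labelled as a separate sample, control 4, held counts identical to control 3 at every gene and was counted once. Its running sample number puts it in 1 run with TPA+H89 2, TPA 2 and H89 3, while that of control 3 lies with EGF+H89 2, EGF 3 and H89 2. Nothing in the labels says which control is the original, so either run may lack a control of its own. The counts fell into 3 technical batches that the labels do not name: batch A held EGF 1 and control 1, batch B held replicate 1 of EGF+H89, TPA+H89, TPA and H89 with EGF 2 and control 2, and batch C held the rest. Batch B was set apart by ribosomal RNA above 10% of counts, and batch A by having more genes at a count of 1 than at a count of 2. Batch B was itself uneven. Ribosomal RNA was 11.69% in TPA 1 and 12.03% in TPA+H89 1, against 24.78% to 30.43% in EGF+H89 1, EGF 2, H89 1 and control 2. In batch B, TPA treatment and this difference cannot be told apart when TPA or TPA+H89 is compared with another group. Batch A was uneven as well, with ribosomal RNA at 4.483% in control 1 and 0.01827% in EGF 1. EGF treatment and that difference cannot be told apart in batch A. Fibroblast markers summed to 20450 to 58080 CPM per library, and 8 leukocyte markers to between 0.149 and 3.999 CPM. Keratinocyte markers summed to 8.71 and 44.4 CPM in TPA, against 7.11 to 12.5 CPM in control, and their part in the results was not tested. Nothing in the labels says that replicates came from separate cultures, so each p-value measures the spread between these libraries only.

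Promoter stretches are shown for the matched members, because they differ in which of the searched GAS and ISRE letters they hold. RefSeq windows (GRCh38.p14) were matched for 8 of the 10 members, in 12 windows, and GBP2 and IFIT2 are named only. The 250 bases before each start were searched on both strands for the GAS letters TTCNNNGAA, the ISRE letters GAAANNGAAA, the cAMP response element TGACGTCA and the EGR letters GCGTGGGCG. Stretches are printed in the gene's direction, 5′ to 3′, and capitals mark the matches, where an ISRE match on the other strand reads as its reverse complement.
IRF1 (chr5:132490869-132490917, minus strand): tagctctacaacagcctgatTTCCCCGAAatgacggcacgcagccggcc
GBP1 (chr1:89065306-89065355, minus strand): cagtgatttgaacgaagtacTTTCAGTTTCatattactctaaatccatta
HELZ2 (chr20:63574240-63574339, minus strand): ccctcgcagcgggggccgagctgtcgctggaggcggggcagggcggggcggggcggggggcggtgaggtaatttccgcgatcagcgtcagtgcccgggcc
ISG15 (chr1:1013364-1013419, plus strand): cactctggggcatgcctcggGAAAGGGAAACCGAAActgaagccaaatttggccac
IFIT1 (chr10:89392487-89392549, plus strand): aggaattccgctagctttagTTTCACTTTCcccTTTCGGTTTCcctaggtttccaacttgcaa
IFIT3 (chr10:89327821-89327904, plus strand): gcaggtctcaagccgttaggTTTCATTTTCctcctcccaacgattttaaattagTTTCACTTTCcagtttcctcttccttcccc
MX1 (chr21:41431834-41431889, plus strand): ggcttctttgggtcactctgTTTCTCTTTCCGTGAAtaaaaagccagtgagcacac
OAS1 (chr12:112906774-112906822, plus strand): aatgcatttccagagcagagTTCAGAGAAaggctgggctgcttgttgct

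IRF1 held a GAS match starting 124 bases before its start and no ISRE match. GBP1 held an ISRE match at 127 bases. ISG15 held 2 overlapping ISRE matches, at 113 and 107 bases, and IFIT1 held 2 separate ones, at 116 and 103 bases. IFIT3 had 2 windows with 2 ISRE matches each, and OAS1 held a GAS match at 168 bases. Of the 3 windows of MX1, 2 held no match and 1 held an ISRE and a GAS match that overlap. HELZ2 had no match in either of its 2 windows, and no member window held the cAMP or EGR letters. Among all 35116 windows of this length, 3.02% held the ISRE letters, 6.57% the GAS letters, 1.65% the cAMP letters and 0.72% the EGR letters. These matches describe the letters and were not measured as binding sites. Only these exact letters and spacings were searched, so a window without a match may still hold an element of another form.

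IRF1, the interferon regulatory factor that gives the group its name, was higher with either mitogen, and with EGF its level was similar with and without H89. IRF1 stood at 109.6 and 95.9 CPM in EGF+H89, at 66.6, 124.5 and 115.8 CPM in EGF, and at 31.8, 32.4 and 23.7 CPM in H89 alone, against 22.7, 32.0 and 42.8 CPM in control. No EGF or EGF+H89 library overlapped with H89 alone or control. In bulk RNA a change in the number of expressing cells and a change per cell cannot be told apart. The log2 fold change of IRF1 was 1.65 ± 0.41 (SE) for EGF against control, 1.81 ± 0.45 for EGF+H89 against H89 and 0.01 ± 0.45 for EGF+H89 against EGF, an error wide enough for a change of either sign. The interaction of EGF and H89, the difference between the EGF response with H89 and without it, was 0.16 ± 0.60 on the log2 scale.

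The EGF difference of IRF1 had the same direction in every batch that held both groups. The log2 difference of EGF from control was 1.55 in batch A, 1.96 in batch B and 1.44 in batch C. EGF+H89 exceeded H89 alone by 1.79 in both batch B and batch C. EGF+H89 minus EGF was -0.18 in batch B and -0.27 in batch C. Each of these differences rests on 2 libraries, or on 3 for EGF+H89 minus H89 in batch C, so its spread is not known. Over all batches the EGF libraries had an SD of 31.3 CPM around a mean of 102.3 CPM (n = 3). The lowest of them was EGF 1, of batch A, which held no EGF+H89 library.

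With TPA, IRF1 varied more. It stood at 37.5 and 67.3 CPM in TPA+H89 and at 70.5 and 220.3 CPM in TPA, against 22.7 to 42.8 CPM in control. Both TPA libraries lay above every control, and both TPA+H89 libraries lay below both TPA libraries, although TPA+H89 2 and TPA 1 lay close together. In log2 fold change this was 2.16 ± 0.45 for TPA against control, -1.47 ± 0.50 for TPA+H89 against TPA and 0.85 ± 0.45 for TPA+H89 against H89. Without TPA 2, the deepest library, the log2 fold change for TPA against control was 1.12, and that for TPA+H89 against TPA was -0.42. The value for TPA+H89 against H89 was 0.36 without TPA+H89 2 and 1.21 without TPA+H89 1. Within batches, TPA minus control was 1.14 in batch B and 2.37 in batch C, and TPA+H89 minus TPA was -0.91 in batch B and -1.71 in batch C. The group order of mean IRF1 was TPA (145.4 CPM), EGF+H89 (102.7), EGF (102.3), TPA+H89 (52.4), control (32.5) and H89 (29.3), and the ranges of each neighbouring pair in that order overlapped.

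**Figure D1:**
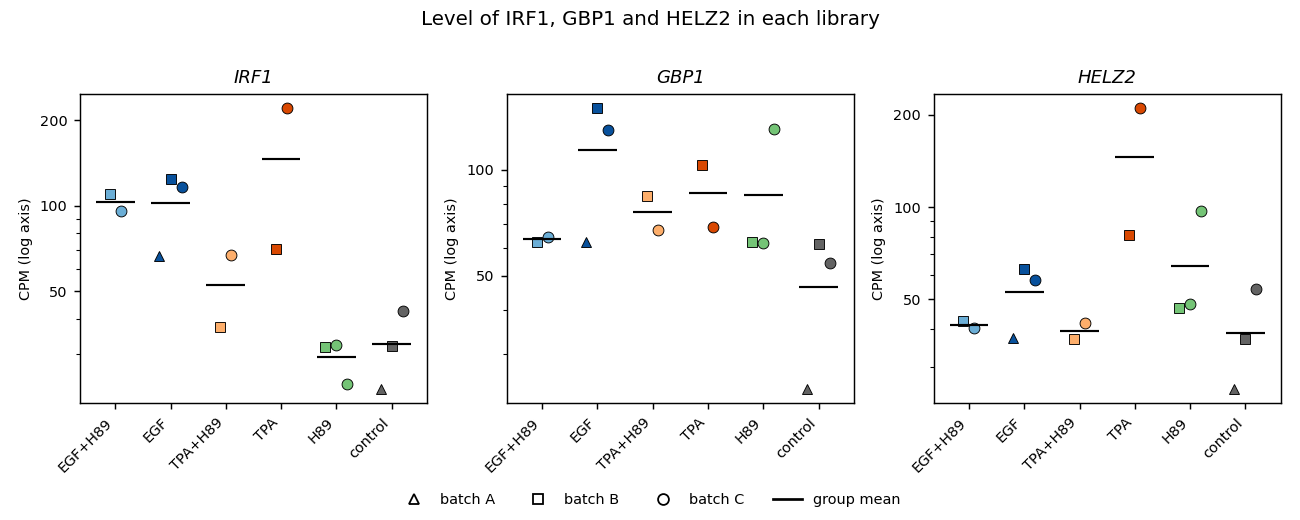
Level of IRF1, GBP1 and HELZ2 (CPM, log axis) in each library of the 6 groups, with the shape giving the technical batch and the line the group mean. IRF1 stands at 66.6 to 124.5 CPM in EGF and at 95.9 and 109.6 CPM in EGF+H89, above all H89 and control libraries, and HELZ2 is highest in TPA 2 at 210.5 CPM.

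GBP1, a large GTPase of the guanylate-binding protein family that coats intracellular pathogens and is a standard target of interferon gamma, was higher with EGF alone and near the inhibitor level with EGF and H89 together. GBP1 stood at 62.4 and 64.4 CPM in EGF+H89, at 62.4, 149.5 and 129.9 CPM in EGF, and at 62.2, 61.7 and 130.2 CPM in H89, against 23.8, 61.3 and 54.2 CPM in control. EGF 2 and EGF 3 were high, while EGF 1 was no higher than the EGF+H89 libraries. EGF 1 and control 1, both of batch A, were the lowest libraries of their groups. The log2 fold change of GBP1 was 1.29 ± 0.42 (SE) for EGF against control, -0.85 ± 0.48 for EGF+H89 against EGF and -0.42 ± 0.47 for EGF+H89 against H89.

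The interaction of EGF and H89 for GBP1, by which it was chosen, was -1.71 ± 0.64, and it was -1.26 without H89 3. Within batches EGF minus control for GBP1 was 1.39 in batch A, 1.29 in batch B and 1.26 in batch C. EGF+H89 minus EGF was -1.26 in batch B and -1.01 in batch C. The H89 level itself rests on H89 3. Without it, the log2 fold change for H89 against control was 0.41 in place of 0.87. With TPA, GBP1 stood at 84.0 and 67.4 CPM in TPA+H89 and at 103 and 68.8 CPM in TPA, and these ranges overlapped. For TPA against control GBP1 had a log2 fold change of 0.89 ± 0.46, and for TPA+H89 against TPA one of -0.18 ± 0.51.

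HELZ2, a helicase-like coactivator of nuclear receptors that is also listed among interferon-induced genes, was high with TPA alone. HELZ2 stood at 37.0 and 41.8 CPM in TPA+H89, at 81.2 and 210.5 CPM in TPA, and at 46.7, 48.4 and 96.7 CPM in H89, against 25.4, 37.0 and 54.1 CPM in control. Both TPA libraries were above both TPA+H89 libraries, and the TPA+H89 libraries were below every H89 library. HELZ2 had a log2 fold change of 1.91 ± 0.44 (SE) for TPA against control, -1.89 ± 0.50 for TPA+H89 against TPA and -0.70 ± 0.45 for TPA+H89 against H89. The interaction of TPA and H89 was -2.61 ± 0.64, and it may be part of the pattern by which HELZ2 was chosen.

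As with IRF1, TPA 2 set much of the size for HELZ2. Without TPA 2 the log2 fold change for TPA against control was 1.07, that for TPA+H89 against TPA was -1.04, and the interaction of TPA and H89 was -1.77. Within batches TPA minus control was 1.14 in batch B and 1.96 in batch C, and TPA+H89 minus TPA was -1.13 in batch B and -2.33 in batch C. With EGF, HELZ2 stood at 42.3 and 40.3 CPM in EGF+H89 and at 37.3, 62.9 and 57.8 CPM in EGF, and both groups overlapped with control. Its log2 fold change for EGF against control was 0.44 ± 0.40, and the interaction of EGF and H89 was -1.07 ± 0.60. HELZ2 averaged 145.9 ± 91.4 CPM in TPA (SD, n = 2) and 52.7 ± 13.5 CPM in EGF (SD, n = 3).

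**Figure D2:**
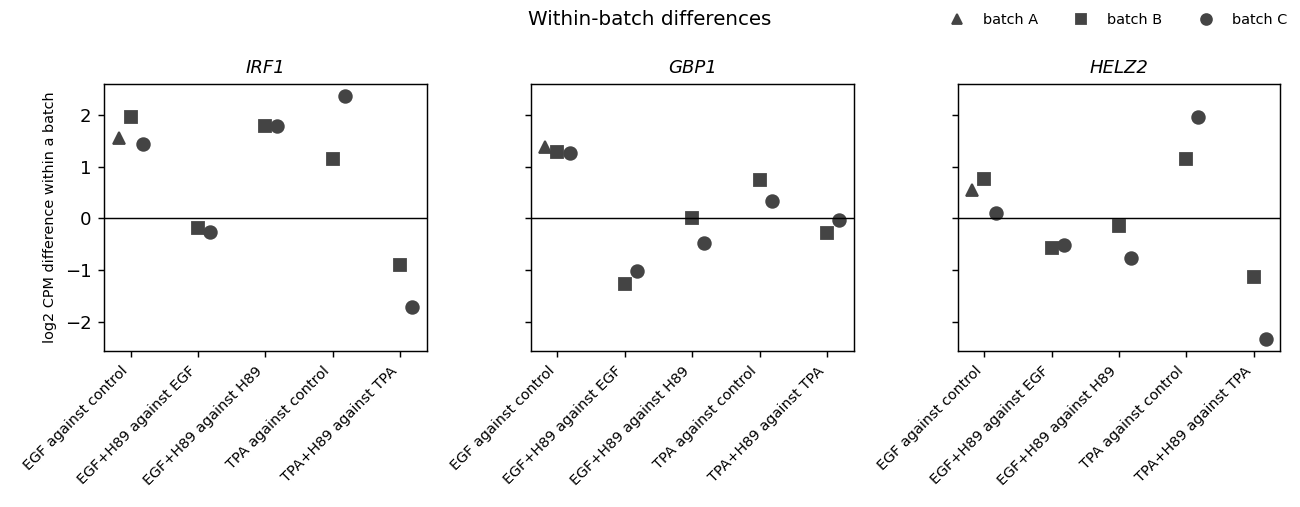
Log2 CPM difference of IRF1, GBP1 and HELZ2 within each technical batch for 5 comparisons, each point being 1 batch. EGF minus control lies between 1.26 and 1.39 for GBP1 and between 1.44 and 1.96 for IRF1, while EGF+H89 minus EGF is below -1 for GBP1 in both batches and near 0 for IRF1.

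No member was called by edgeR's quasi-likelihood F-test, Benjamini-Hochberg adjusted at 0.05 over all tested genes in any of the 10 comparisons. Calls were rare over all genes. They were 0.0269% of tested genes for EGF against control, 0.415% for TPA against control, 0.0269% for EGF+H89 against H89 and 0.0969% for TPA+H89 against H89. They were 0% for TPA against EGF, for H89 against control, for both comparisons of a mitogen with H89 against the mitogen alone, and for both interactions. With a term for the technical batch, IRF1 passed for EGF against control and for EGF+H89 against H89, and IRF1 and HELZ2 passed for TPA against control. That fit called 0.221% of tested genes for EGF against control, 0.269% for EGF+H89 against H89 and 1.25% for TPA against control. It called 0.431% for TPA+H89 against H89, 0.334% for TPA against EGF and 0% for the 5 others. As these comparisons share libraries with the interactions that chose both genes, nothing is read from those calls.

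The other 7 members were tested. With EGF, 1 of 7 had a positive log2 fold change against control, beside 53.2% of all tested genes. The median was -0.07 beside 0.02 over all tested genes. By edgeR's quasi-likelihood test 0 of the 7 had an unadjusted p under 0.05, beside 303 of 18575 tested genes. With TPA 6 of 7 were positive, beside 48.7% of all tested genes, with a median of 0.95 beside -0.02. Of these 7, 2 had an unadjusted p under 0.05, beside 2453 of 18575 tested genes. Without TPA 1 only ISG15 and IFIT3 were still positive. With H89 alone 6 of 7 were positive, beside 45.2% of all tested genes, with a median of 0.83 beside -0.05, and 1 had an unadjusted p under 0.05, beside 608 tested genes. These counts describe the list and are not a test of it.

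ISG15 is an interferon-induced, ubiquitin-like protein that becomes attached to other proteins. It had the widest TPA difference of the 7 when all libraries were used, though MX1 and IFIT3 exceeded it without TPA 2. ISG15 stood at 50.1 and 73.96 CPM in EGF+H89, at 36.9, 27.2 and 53.2 CPM in EGF, at 172.6 and 75.3 CPM in TPA+H89, at 152.5 and 232.3 CPM in TPA, and at 60.8, 50.4 and 196.2 CPM in H89, against 22.7, 46.4 and 49.6 CPM in control. Both TPA libraries were above all EGF and control libraries, H89 3 stood far above the other 2 H89 libraries, and EGF overlapped with control. The log2 fold change of ISG15 for TPA against control was 2.28 ± 0.58 (SE, adjusted p = 0.157 by edgeR's quasi-likelihood F-test, Benjamini-Hochberg adjusted), and with the batch term it was 2.13 (adjusted p = 0.0538). Within batches TPA minus control for ISG15 was 1.72 in batch B and 2.23 in batch C. For TPA against EGF it was 2.30 ± 0.58 (adjusted p = 0.301 by the same edgeR test).

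Among the 7 tested members ISG15 was the only one called under any of the 22 alternatives. DESeq2 called ISG15 for TPA against control (adjusted p = 0.00733), where it called 2.93% of its tested genes, and for TPA against EGF (adjusted p = 0.0144), where it called 1.75%. Without TPA 1 edgeR's quasi-likelihood test called ISG15 in both comparisons (adjusted p = 0.0461 and 0.0469), where it called 5.92% and 5.81% of tested genes. The lone TPA library is then assumed to vary like the other groups. Without TPA 2 the log2 fold change of ISG15 for TPA against control was 1.95 and was not called. For H89 against control it was 1.37 ± 0.53, which did not pass (adjusted p = 1.00 by edgeR's quasi-likelihood test), and without H89 3 it was 0.49.

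IFIT1, IFIT2 and IFIT3, relatives that bind viral RNA and block its translation, were high in TPA 1 and not in TPA 2. IFIT1 stood at 120.3 and 120.9 CPM in EGF+H89, at 115.9, 86.7 and 93.3 CPM in EGF, at 272.4 and 199.7 CPM in TPA+H89, at 328.3 and 72.6 CPM in TPA, and at 146.3, 97.4 and 286.1 CPM in H89, against 81.0, 133 and 97.7 CPM in control. TPA 2 was the lowest of all 15 libraries for IFIT1, and TPA 1 was the highest. IFIT3 stood at 92.3 and 92.7 CPM in EGF+H89, at 69.8, 73.7 and 68.1 CPM in EGF, at 172.4 and 155.9 CPM in TPA+H89, at 274.5 and 88.4 CPM in TPA, and at 90.6, 69.1 and 192.2 CPM in H89, against 56.6, 81.5 and 60.6 CPM in control. Both TPA and both TPA+H89 libraries of IFIT3 were above all controls. For TPA against control the IFIT3 log2 fold change came to 1.45 ± 0.45 (SE, adjusted p = 0.235 by edgeR's quasi-likelihood F-test, Benjamini-Hochberg adjusted).

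The 2 TPA libraries gave different answers for the IFIT genes. Without TPA 1 the log2 fold change for TPA against control was 0.39 for IFIT3, -0.54 for IFIT1 and -0.53 for IFIT2, and without TPA 2 it was 2.06 for IFIT3, 1.66 for IFIT1 and 1.46 for IFIT2. IFIT2 ranged from 20.8 CPM in EGF 1 to 83.3 CPM in TPA 1. Its EGF+H89 libraries stood at 35.9 and 35.8 CPM, above the 20.8 to 29.7 CPM of EGF, with a log2 fold change of 0.49 ± 0.44 that did not pass (adjusted p = 1.00 by edgeR's quasi-likelihood test). The IFIT genes, like GBP1 and GBP2, are near relatives in sequence, and how reads shared by relatives were counted is not given in the sources used here.

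MX1, a dynamin-like GTPase that traps viral particles, and OAS1, an enzyme that makes the messenger that activates RNase L, set batch A apart. MX1 stood at 60.0 and 74.5 CPM in EGF+H89, at 12.6, 47.9 and 62.8 CPM in EGF, at 119.4 and 67.9 CPM in TPA+H89, at 219.8 and 45.4 CPM in TPA, and at 77.7, 66.6 and 220.3 CPM in H89, against 12.9, 50.2 and 77.9 CPM in control. OAS1 stood at 13.3 and 17.8 CPM in EGF+H89, at 0.401, 11.6 and 13.2 CPM in EGF, at 24.8 and 12.6 CPM in TPA+H89, at 28.5 and 2.88 CPM in TPA, and at 18.4, 13.7 and 32.0 CPM in H89, against 0.391, 11.8 and 14.2 CPM in control. EGF 1 and control 1 held 18 OAS1 counts each, and they were also the lowest libraries for MX1. The part of the batch in these levels was not tested beyond the within-batch differences. Within batch A, EGF minus control was -0.04 for MX1 and 0.03 for OAS1 on the log2 scale.

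The log2 fold change for TPA against control was 1.496 ± 0.82 for MX1 and 0.83 ± 1.26 for OAS1 (adjusted p = 0.425 and 0.788 by edgeR's quasi-likelihood F-test, Benjamini-Hochberg adjusted). Without TPA 1 these values were -0.05 for MX1 and -1.61 for OAS1. For H89 against control they were 1.37 ± 0.76 for MX1 and 1.28 ± 1.16 for OAS1, with adjusted p = 1.00 for both by the same edgeR test. Within batches, where control 1 plays no part, H89 minus control was 0.63 in batch B and 0.64 in batch C for MX1, and 0.63 in batch B and 0.56 in batch C for OAS1. In batch C H89 3 was above control 3 for both genes and H89 2 was below it. Without H89 3 the log2 fold change for H89 against control was 0.62 for MX1 and 0.87 for OAS1.

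**Figure D3:**
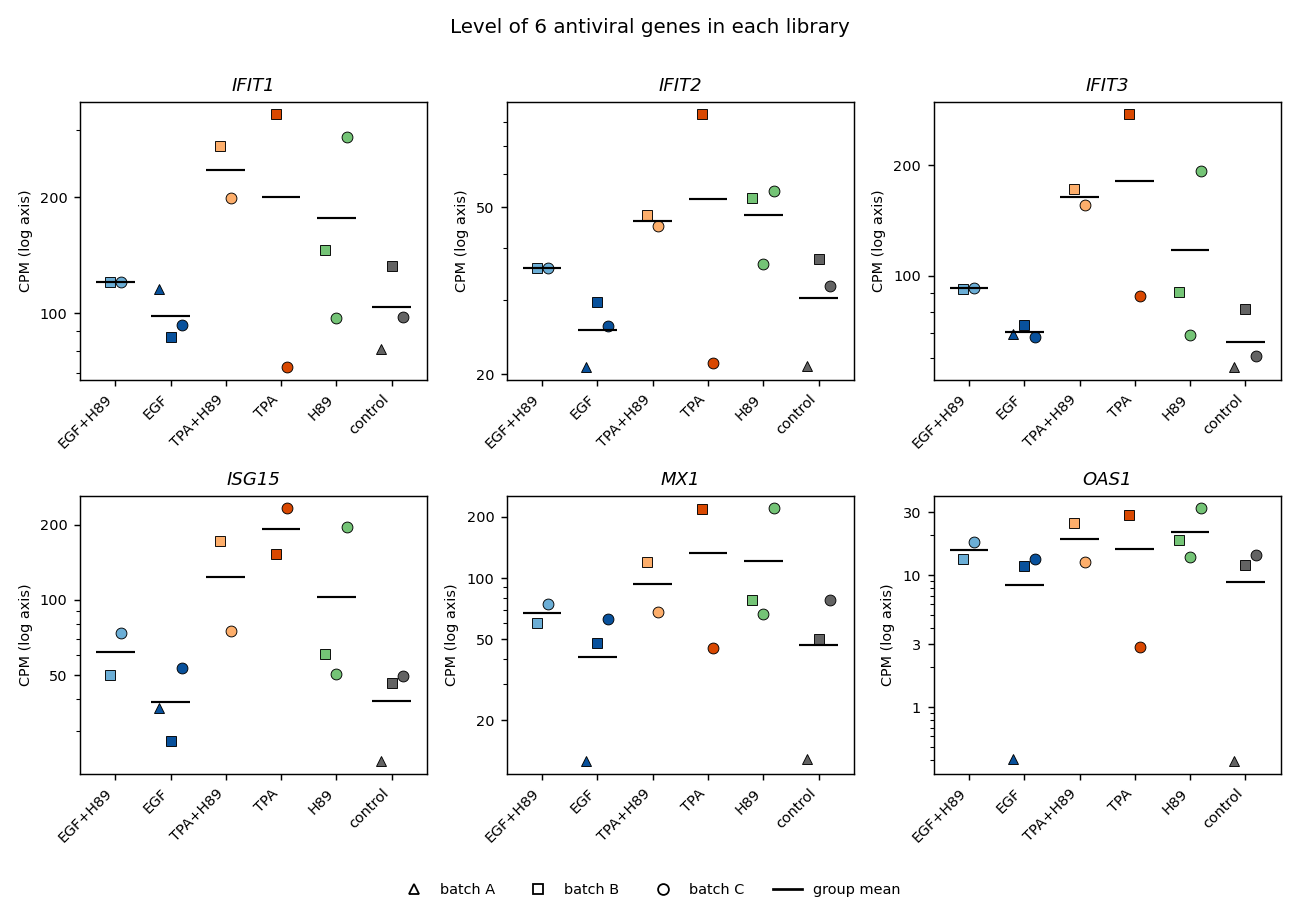
Level of IFIT1, IFIT2, IFIT3, ISG15, MX1 and OAS1 (CPM, log axis) in each library of the 6 groups, with the shape giving the technical batch and the line the group mean. TPA 1 and H89 3 stand high in all 6 panels, TPA 2 is high for ISG15 at 232.3 CPM and low for IFIT1 at 72.6 CPM, and EGF 1 and control 1 are the lowest libraries for MX1 and OAS1.

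GBP2, a guanylate-binding protein related to GBP1, did not follow it. GBP2 stood at 37.3 and 39.6 CPM in EGF+H89, at 25.6, 41.4 and 34.2 CPM in EGF, at 21.5 and 28.7 CPM in TPA+H89, at 16.4 and 25.0 CPM in TPA, and at 37.2, 43.1 and 17.3 CPM in H89, against 24.9, 33.8 and 50.3 CPM in control. The lowest libraries were TPA 1 and H89 3, which were high for the antiviral genes. The log2 fold change of GBP2 was -0.11 ± 0.35 (SE) for EGF against control, with adjusted p = 1.00, and -0.81 ± 0.40 for TPA against control, with adjusted p = 0.403, both by edgeR's quasi-likelihood F-test, Benjamini-Hochberg adjusted. Within batches TPA minus control for GBP2 was -1.04 in batch B and -1.01 in batch C.

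The 6 antiviral genes IFIT1, IFIT2, IFIT3, ISG15, MX1 and OAS1 went up and down in single libraries of several groups. The median of their log2 differences from the control mean was 2.05 in TPA 1, 1.97 in H89 3, 1.56 in TPA+H89 1 and 0.99 in TPA+H89 2. It was -0.09 in TPA 2, where ISG15 alone reached 2.63. It was 0.46 and 0.74 in the EGF+H89 libraries, 0.77 and 0.37 in H89 1 and H89 2, and -0.26, 0.09 and 0.28 in the EGF libraries, against -0.61, 0.37 and 0.27 in the controls. The libraries with the highest medians thus came from 3 treatments, and H89 3 and TPA+H89 2 may lack a control of their own run of sample numbers.

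Correlations of log2 CPM over the 15 libraries are given as a description, since the libraries share groups, batches and depth. Within the 6 antiviral genes Pearson's r was 0.461 to 0.927 in 15 pairs, with a median of 0.748. IRF1 with each of the 6 gave -0.343 to 0.138, and GBP2 with each gave -0.728 to 0.076. After batch effects, fitted together with the groups, were removed, the 6 had a median of 0.790 among themselves. IRF1 with them then had -0.440 and GBP2 with them -0.761. The libraries with high IRF1 were mostly not those in which the antiviral genes were high. TPA 1 was high for both. TPA+H89 2 stood at 67.3 CPM for IRF1, near TPA 1 at 70.5 CPM, and had an antiviral median of 0.99.

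**Figure D4:**
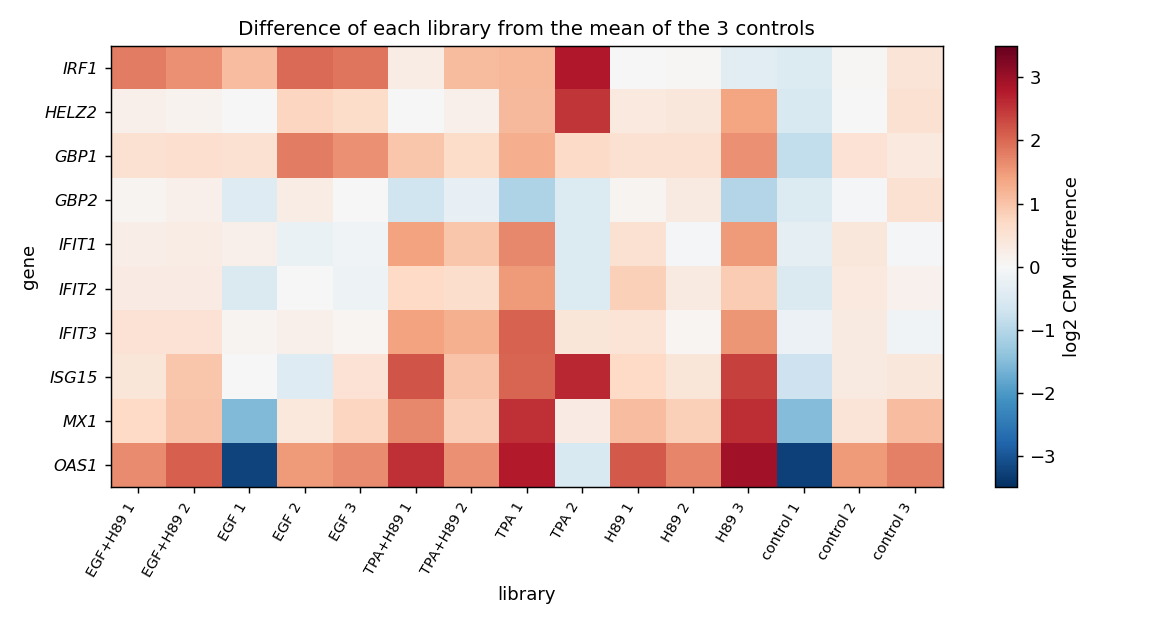
Log2 CPM difference of each library from the mean of the 3 controls for the 10 members, with libraries across and genes down. IRF1 is above the controls in all EGF+H89, EGF and TPA libraries, whereas the 6 antiviral genes are high together in TPA 1, H89 3 and TPA+H89 1.

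The genes whose pattern was most like that of IRF1, by Pearson's r over the 15 libraries among 13457 genes with a mean of at least 1 CPM, were SOCS3 (0.970), CCNL1 (0.941), MFSD2A (0.936), LOC101928796 (0.922) and ETS2 (0.918). SOCS3, which shuts off JAK and STAT signalling at cytokine receptors, remained the most alike after batch effects were removed, with r = 0.981. SOCS3 stood at 372.2 and 366.7 CPM in EGF+H89, at 303.8, 393.7 and 390.4 CPM in EGF, at 96.9 and 238.4 CPM in TPA+H89, at 237.1 and 1199 CPM in TPA, and at 113, 127.7 and 50.8 CPM in H89, against 89.2, 82.0 and 118.5 CPM in control. As with IRF1, all EGF+H89 and EGF libraries were above all H89 and control libraries, and TPA 2 was the highest of all.

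**Figure D5:**
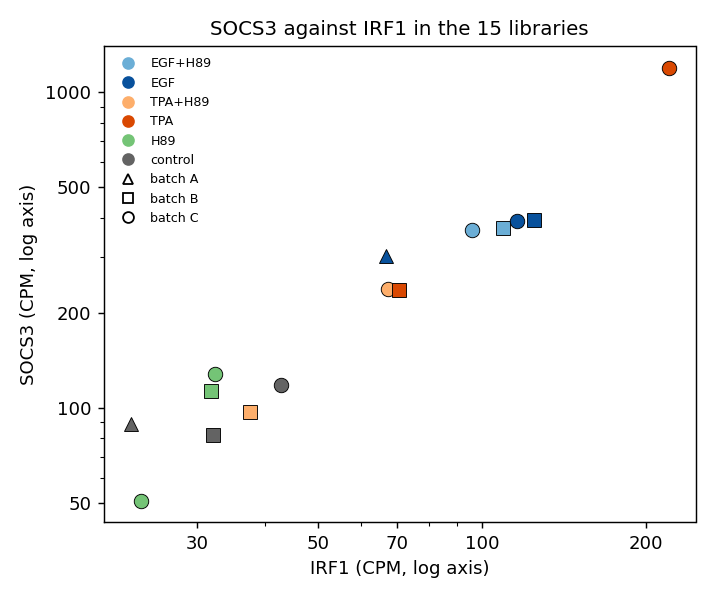
SOCS3 against IRF1 (both in CPM, log axes) in the 15 libraries, with colour giving the group and shape the technical batch. TPA 2 is highest for both genes, at 220.3 CPM for IRF1 and 1199 CPM for SOCS3, and the EGF+H89 and EGF libraries lie together above the H89 and control libraries.

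GBP1 was most like CHUK (0.861), CDC6 (0.832), SERPINB2 (0.821), SYDE2 (0.814) and TRPC6 (0.813). After batch effects were removed the list changed to PCSK7 (0.892), CD274 (0.848), ZNF274 (0.845), GNL2 (0.842) and NOP56 (0.839). CD274, the immune checkpoint ligand PD-L1, averaged 3.03 ± 0.123 CPM in EGF+H89 (SD, n = 2) and 7.59 ± 1.18 CPM in EGF (SD, n = 3), against 2.64 ± 0.630 CPM in H89 and 2.54 ± 0.945 CPM in control (SD, n = 3 each). HELZ2 was most like METTL21A (0.918), MEGF6 (0.912), CCDC71L (0.894) and GPC1 (0.894). After batch effects were removed HELZ2 was most like LONRF1 (0.944), VCP (0.923), KCNG1 (0.911), TOMM40 (0.909) and KIFC3 (0.908). None of the genes named for GBP1 or HELZ2 before batch effects were removed was among the 5 most alike after it.

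The wider interferon pathway was followed in 100 genes of 8 lists, of which 93 were tested. None was called in any comparison by edgeR's quasi-likelihood F-test, Benjamini-Hochberg adjusted, and at an unadjusted p under 0.05 the numbers were 3 for EGF against control, 11 for TPA against control and 2 for H89 against control. Over all 18575 tested genes they were 303, 2453 and 608 for the same comparisons. The share among the 93 pathway genes was thus no higher than among all tested genes for TPA and H89. For EGF it was higher but rests on 3 genes, and the shares were not tested. The interferon genes themselves had few counts. IFNB1, the interferon beta gene, had 13 counts over the 15 libraries and 0 in 11 of them. IFNG had 13 counts and IFNL1 12, each with 0 in 13 libraries. Counts as low as these do not show absence. IFNE was the only ligand gene that passed the filter, with 416 counts in all.

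The receptors and JAK-STAT core, with 11 tested genes such as JAK1, had a median log2 fold change of -0.01 for EGF against control and 0.08 for TPA against control.

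The 30 other interferon-induced effectors, such as IFI6, gave 13 positive log2 fold changes for EGF against control. This was 43.3% beside 53.2% of all tested genes, with a median of -0.04. They gave 22 positive, or 73.3% beside 48.7% of all tested genes, with a median of 0.55 for TPA against control. They gave 27 positive, or 90% beside 45.2%, with a median of 0.58 for H89 against control. With the batch term these medians were 0.19 for TPA and 0.25 for H89. IFI6, a mitochondrial survival protein of the interferon response, stood at 27.9 CPM in EGF 1 and 22.4 CPM in control 1, against 209 CPM or more in every other library. As for MX1 and OAS1, its low libraries were those of batch A.

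Of the negative regulators and other IRF factors, 1 gene in each list passed for TPA against control once a batch term was added. These were 2 of the 93 tested pathway genes, while that fit called 1.25% of all tested genes. The shares were not tested. SOCS3 had a log2 fold change of 2.66 ± 0.53 with that term (adjusted p = 0.0180) and of 2.89 ± 0.58 without it (adjusted p = 0.0592), both by edgeR's quasi-likelihood F-test, Benjamini-Hochberg adjusted. IRF7, the factor that amplifies interferon production, had 1.67 ± 0.35 with it (adjusted p = 0.0258) and 1.87 ± 0.47 without it (adjusted p = 0.152), by the same edgeR test. IRF7 stood at 10.6 and 14.9 CPM in TPA+H89 and at 18.9 and 41.0 CPM in TPA, against 5.84, 6.78 and 11.9 CPM in control. Its TPA+H89 libraries were below both TPA libraries, as for IRF1 and HELZ2, and the log2 fold change for TPA+H89 against TPA was -1.23 ± 0.53 (adjusted p = 0.713 by edgeR's quasi-likelihood test).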

How the data were processed

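Strand-specific libraries were made from total RNA depleted of ribosomal RNA and sequenced on 3 platforms that are not tied to samples, per the labels' protocols. The deposited values are raw counts per gene symbol, made by the authors. HOMER and the builds hg19 and GRCh37 are named per the submitters' processing notes; the aligner, annotation version and strand setting were not given in the sources used here. The labels give only a running sample number, so no samples were paired.

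In R 4.3.3, genes were kept by filterByExpr of edgeR 4.0.16 (smallest count 10), libraries were scaled by TMM, and a single model with 1 coefficient per group covered all 15 libraries, tested by quasi-likelihood with Benjamini-Hochberg adjustment at 0.05 over 18575 genes. Log2 CPM used a prior count of 2, and batch effects, fitted together with the groups, were removed with limma 3.58.1. DESeq2 1.42.0 was 1 of 22 alternatives. Older symbols were used for 3 sensor genes. The members, the pathway lists and the rules for named genes (all members, the pathway genes called or with the highest level in a list, and the 5 most alike genes) were chosen with earlier results of these data known. IFNB1, IFNG and IFNL1 are outside these rules and were named after their values were seen. Promoter windows came from RefSeq and were used for their letters only, since their build differs from that of the counts. Some genes that these rules name are not reported here.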

Additional observations from a re-analysis of the deposited data

Results flagged for a closer look

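For HELZ2 the effect of H89 differed by 2.43 on the log2 scale between cells with TPA and cells without a mitogen. It was -1.73 with TPA and 0.701 without a mitogen, each library being compared with the mean of the group set against it. Single libraries of H89 and control overlapped, and without H89 3 the log2 fold change for H89 against control was 0.29 in place of 0.72. The effect of TPA on HELZ2 differed by the same 2.43, being -0.614 with H89 and 1.82 without it. The difference was not tested, because HELZ2 was chosen by its pattern over the mitogens and H89.

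For ISG15 the effect of H89 differed by 1.90 between cells with TPA and cells without a mitogen, being -0.723 with TPA and 1.17 without a mitogen. It differed by 1.42 between cells with EGF and cells with TPA, being 0.693 with EGF and -0.723 with TPA, and this difference was not tested. The ISG15 ranges of TPA+H89 and TPA overlapped, and TPA+H89 minus TPA was 0.18 in batch B and -1.62 in batch C. The interaction of TPA and H89 was -2.01 ± 0.83 (SE, adjusted p = 0.900 by edgeR's quasi-likelihood F-test, Benjamini-Hochberg adjusted), which tests the difference between cells with TPA and cells without a mitogen and did not pass. Without H89 3 this interaction was -1.13, and without TPA+H89 1 it was -2.71. Within batches the ISG15 interaction was -0.21 in batch B and -2.63 in batch C.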

How the results depend on the processing

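Over 22 alternatives and 10 comparisons, the 2200 member log2 fold changes were not reversed or weakened past the threshold in any case, since no member passed to begin with. They stayed close in 2104 cases, moved by more than 1 SE in 74 and newly passed in 22, and the sign changed in 69. No member was called as reported. For EGF against control 1 member (IRF1) was called by DESeq2 and with the batch term. For TPA against control 3 were called by DESeq2 (IRF1, HELZ2 and ISG15), 2 with the batch term and 1 with both control copies, and 0 to 3 when single libraries were left out, with 3 without TPA 1 and 1 without EGF 1. For EGF+H89 against H89 1 was called by DESeq2, with the batch term, with only the compared groups in the model and without control 1, EGF 1 and TPA 2 together (IRF1 each time). For TPA against EGF 1 was called by DESeq2 (ISG15), and 0 to 2 when single libraries were left out. Leaving out single libraries gave 0 to 2 for TPA+H89 against TPA and 0 to 1 for the interaction of TPA and H89, and the highest counts came without TPA 1. The cause was not tested. DESeq2 called 2.93% of its tested genes for TPA against control and 1.75% for TPA against EGF. The batch term gave 0.221% for EGF against control, 1.25% for TPA against control and 0.269% for EGF+H89 against H89. Shares over all genes are not given here for the other alternatives, so nothing is read from the counts of members called. Leaving out a TPA library leaves 1 in that group, which is assumed to vary like the others. No paired analysis was possible because the labels give replicates no number shared across groups; the technical batch, read from the counts, was the term used.

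TPA and TPA+H89 had 2 libraries each, TPA 1 and TPA 2 differed widely, and batch A held no H89 or TPA library. H89 3 and TPA 2 share a run of sample numbers whose control was identical to that of another run, and which is the original is not known. Treatment and run thus cannot be told apart there. In batch B, TPA 1 and TPA+H89 1 also differed from control 2 in ribosomal RNA, and in batch A EGF 1 differed from control 1 in it. OAS1 at 18 counts limits its fold changes. The unnamed batches touch every comparison, the identical control those with control, and a possible difference in the time in H89 those between H89 alone and a group with a mitogen.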
